A study of Mus musculus with 8 samples.

Results

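Mouse macrophages given the osteoclast cytokine RANKL were compared with and without knockdown of Tmbim6. The comparison takes 4 of the 8 libraries of the study: 2 labelled TMBIM6sh with RANKL and 2 labelled NCsh with RANKL. They were chosen by their labels and by no measured value. The cells were bone marrow-derived macrophages from femurs and tibias of C57BL/6 mice aged 6 to 8 weeks. M-CSF, which macrophages need to survive and divide, was given to all 4 groups of the study (30 ng/ml), and the groups compared here also had RANKL (100 ng/ml, 24 h). The other 4 libraries carry the same hairpins without RANKL. They enter the shared estimate of the spread, and they show whether a difference was also there without the cytokine. Every sample carries the same treatment text, so the state without RANKL was taken from the titles. Each side is represented by 1 short hairpin RNA and NCsh is not spelled out, so what follows from less TMBIM6 and what else this hairpin may do cannot be told apart. The labels do not say whether duplicates came from separate mice or cultures, and the p-values then measure only the spread between these libraries, which may be technical.

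TMBIM6, also called Bax inhibitor 1, is a membrane protein of the endoplasmic reticulum (ER) that is known to limit calcium leak from that store and to dampen signalling by the stress sensor IRE1. RANKL binds the receptor RANK on macrophage precursors and acts through TRAF6, NF-kappaB and AP-1 on the transcription factor NFATc1, which drives the genes of cell fusion and bone resorption. The title of the series links TMBIM6 deficiency to bone loss and osteoclast formation, so the question here is how RANKL-treated precursors with less Tmbim6 differ from their controls.

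Tmbim6, on chromosome 15 at 99392947 to 99410049 on the plus strand (mm10), was at 309 and 321 RPKM in the NCsh libraries with RANKL. In the TMBIM6sh libraries with RANKL it was at 10.0 and 10.5 RPKM. The 4 values fall into separate groups as the labels say, and 3.25% of the control mean was left (log2 -4.81, SE 0.0573, limma adjusted p = 5.68e-11). RPKM is the number of sequenced tags scaled to the exon length of the gene and to the tags of the library, and a log2 value below is the difference of log2(RPKM + 1), TMBIM6sh minus NCsh, both with RANKL unless stated.

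The 8 libraries held 25475000 to 28595000 tags each, rounded, and 83.5% to 86.4% of these fell in gene exons. Macrophage markers were present throughout: 16 of 18 passed the filter on low values, with Adgre1 (the F4/80 antigen) at 821 to 901 RPKM and Cd68 at 777 to 821 RPKM in the 4 libraries. The summed level of all 18 was 10380 to 10490 RPKM in NCsh and 8490 to 9169 RPKM in TMBIM6sh libraries, most of it from the lysozyme gene Lyz2. Of the 16 tested, 4 were lower with the hairpin (Mrc1, Cd36, Mertk and Csf1r) and 0 higher; without a library of the NCsh group that had no RANKL, 8 were lower. Over all tested genes, described below, 19.7% were lower and 8.93% higher. In bulk RNA, fewer cells of a type and less RNA per cell cannot be told apart. Among the 12 neutrophil markers the summed level was 27.0 to 32.2 RPKM in NCsh and 16.4 to 19.2 RPKM in TMBIM6sh libraries, most of it from S100a8, and 4, among them Ly6g, were at 0 in all 4 libraries. Dendritic cell markers summed to 10.5 to 12.1 and 8.49 to 9.51 RPKM with Cd209a at 0, and lymphocyte markers to 4.33 to 5.67 and 3.21 to 3.73 RPKM with Ncr1 and Nkg7 among those at 0. Stromal markers summed to 6.79 to 7.34 and 6.81 to 6.86 RPKM, and the 11 erythroid, mast cell and basophil markers to at most 0.121 RPKM with 9 of them at 0. The part of other cells in the results below was not tested.

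Many genes differed between the hairpins under RANKL, most of them by little. Of 11040 genes tested, 986 were higher in TMBIM6sh libraries (8.93%) and 2171 were lower (19.7%) at a limma adjusted p under 0.05. At least 2-fold differences were found for 24 of the higher and 96 of the lower genes, and 2397 of the 3157 called genes (75.9%) differed by less than 1.5-fold. The median over all tested genes was -0.07 on the log2 scale. With median-ratio scaling, which sets the typical gene equal between libraries, 1580 genes were higher and 1680 lower, so that 48.5% of calls were higher against 31.2% without it, and an adjustment for the GC content of transcripts gave 1474 and 1635 (47.4% higher). All 986 higher calls stayed higher under both, and 1680 and 1628 of the 2171 lower calls stayed lower. Both settings moved the median up, to -0.006 and -0.007, so lower calls could be lost more easily than higher ones. These counts therefore do not show the rises to be firmer than the falls. The median GC content was 51.5% for the higher genes, 48.0% for the lower ones and 50.8% for the rest. Across genes, the rank correlation of GC content with the difference between a TMBIM6sh and an NCsh library was 0.0848 to 0.210 over the 4 pairs, beside 0.107 and -0.166 between duplicates. The total of 3157 calls was 1870 or 2077 without NCsh library 1 or 2, and 2071 or 2173 without TMBIM6sh library 1 or 2 (all with RANKL). The higher calls were 581, 629 and 549 without NCsh library 1, NCsh library 2 and TMBIM6sh library 2, and the lower calls 1289 and 1322 without NCsh library 1 and TMBIM6sh library 1. With 2 libraries against 2, a two-sided permutation test of a single gene cannot go below p = 0.333, so each adjusted p below is from limma's fit over all tested genes.

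The 15 largest rises were led by Fgl2 and Cx3cr1. Fgl2, a secreted and membrane-bound protein that limits T cell responses, was at 12.1 and 11.9 RPKM in NCsh and at 61.4 and 61.0 RPKM in TMBIM6sh libraries. The means were 12.0 ± 0.165 and 61.2 ± 0.242 RPKM (SD, n = 2), a ratio of 5.11 (log2 2.26, SE 0.0643, limma adjusted p = 1.11e-07). Cx3cr1, the receptor of fractalkine and a marker of monocytes and resident macrophages, was at 6.00 and 6.86 RPKM against 28.5 and 30.4 RPKM (log2 2.04, SE 0.0798). The libraries of the hairpins lay far apart for both genes, which were chosen as large differences with groups that do not overlap. Laptm5, which sits in lysosomal membranes of blood cells, was at 100.1 and 100.6 RPKM in NCsh and 359 and 439 RPKM in TMBIM6sh libraries (log2 1.97). Slc40a1 (ferroportin), which carries iron out of the cell, was at 9.76 and 8.69 RPKM against 31.6 and 32.3 RPKM (log2 1.69), and Fth1, the heavy chain of the iron store ferritin, at 12840 and 13480 RPKM against 26960 and 28350 RPKM (log2 1.07). Fth1 has many processed pseudogenes that can share its reads, and its call ended when every gene with any value above 0 was tested (limma adjusted p = 0.529). Among the other large rises were the G protein-coupled receptor Gpr31b (1.72), the RNA-binding protein Igf2bp2 (1.24), the chemokine Ccl5 (1.36), the calcium- and calmodulin-dependent kinase Camk1d (1.35), the reductase Cyb5r4 (1.25), the matrix protease Mmp9 (1.22), the nucleolar chaperone family member Npm3 (1.17), Cmtm3 (1.10) and the transcriptional repressor Zbtb18 (1.10), all as log2 values. Raver2, another RNA-binding protein, was at 2.34 and 2.69 RPKM against 9.25 and 10.1 RPKM.

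The largest falls after that of Tmbim6 were led by Cav2, Tusc2 and Clec4n. Cav2, a caveolin of membrane invaginations, was at 50.7 and 55.2 RPKM in NCsh and 12.4 and 14.3 RPKM in TMBIM6sh libraries, 25.1% of the control mean (log2 -1.92, SE 0.0762, limma adjusted p = 1.05e-06). Tusc2, a small mitochondrial protein tied to calcium handling, was at 21.45 and 20.95 RPKM against 5.59 and 4.82 RPKM (log2 -1.84, SE 0.0783). Clec4n, the C-type lectin Dectin-2 that recognises fungal mannans, was at 10.4 and 8.23 RPKM against 2.36 and 1.46 RPKM (log2 -1.84). In these genes the lowest NCsh library stood above the highest TMBIM6sh library, as the rule for choosing them requires. Emp1, a tetraspan membrane protein (-1.66), and Scoc, a Golgi protein (-1.70), were lower to a similar degree. So were Cd33, of the sialic acid-binding receptor family (-1.64), and the glycosyltransferase Gcnt1 (-1.56). Cd38, an enzyme that consumes NAD (-1.42), the actin-binding leukocyte protein Lsp1 (-1.42), Impact, a regulator of the eIF2 kinase GCN2 (-1.37), and Pik3r1, the regulatory subunit of phosphoinositide 3-kinase (-1.34), followed, all as log2 values. The metallothionein Mt2, the clock factor Dbp and the disulfide isomerase Pdia6 complete the 15 largest falls and are described with their gene groups.

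**Figure D1:**
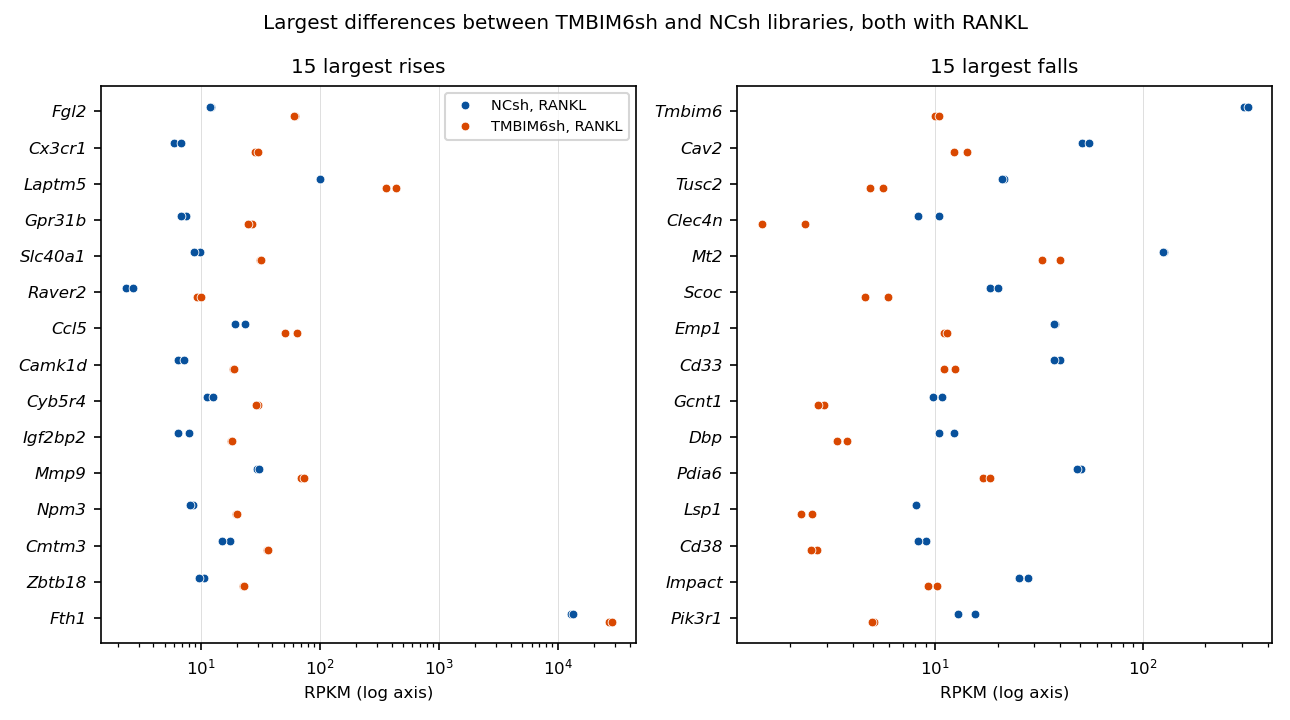
RPKM on a log axis for the 15 largest rises (left) and 15 largest falls (right), 1 point per library with RANKL, 2 NCsh and 2 TMBIM6sh libraries per gene. Genes were chosen as called and with groups that do not overlap, so their separation is set by the choice; Fgl2 goes from 12.1 and 11.9 to 61.4 and 61.0 RPKM, and Tmbim6 from 309 and 321 to 10.0 and 10.5 RPKM.

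These differences were for the most part also there without RANKL. Without the cytokine 1147 genes were higher (10.4%) and 1526 lower (13.8%) in TMBIM6sh libraries. The total of 2673 calls was 1401 or 1396 without TMBIM6sh library 1 or 2 of that state. The comparisons with and without RANKL share no library, though they share the estimate of the spread. In both, 724 genes were higher, 73.4% of those higher with RANKL and 63.1% of those higher without, and 1218 were lower, 56.1% and 79.8% of the respective lists. Only 4 genes were called in opposite ways, the short noncoding RNA genes Mir1893, Snord104 and Snord83b and the snoRNA host Snhg3. Of these, Snord83b rested on 0 to 4 tags per library and Mir1893 on 10 to 20. The log2 differences in both states correlated across the tested genes with Pearson's r at 0.775 and Spearman's rho at 0.736, and genes are no independent replicates. The difference between the states itself passed the test for 1 gene (0.00906%), Snord104, which rests on 1 to 10 tags per library; 857 genes (7.76%) had an unadjusted p under 0.05. Without TMBIM6sh library 1 or 2, or library 1 of the TMBIM6sh group that had no RANKL, 0 genes passed, and 2 passed without NCsh library 1 or TMBIM6sh library 2 that had none. For Fgl2 the log2 difference was 1.52 without and 2.26 with RANKL, and the difference of these, 0.74 (SE 0.0909), did not pass (limma adjusted p = 0.0726).

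**Figure D2:**
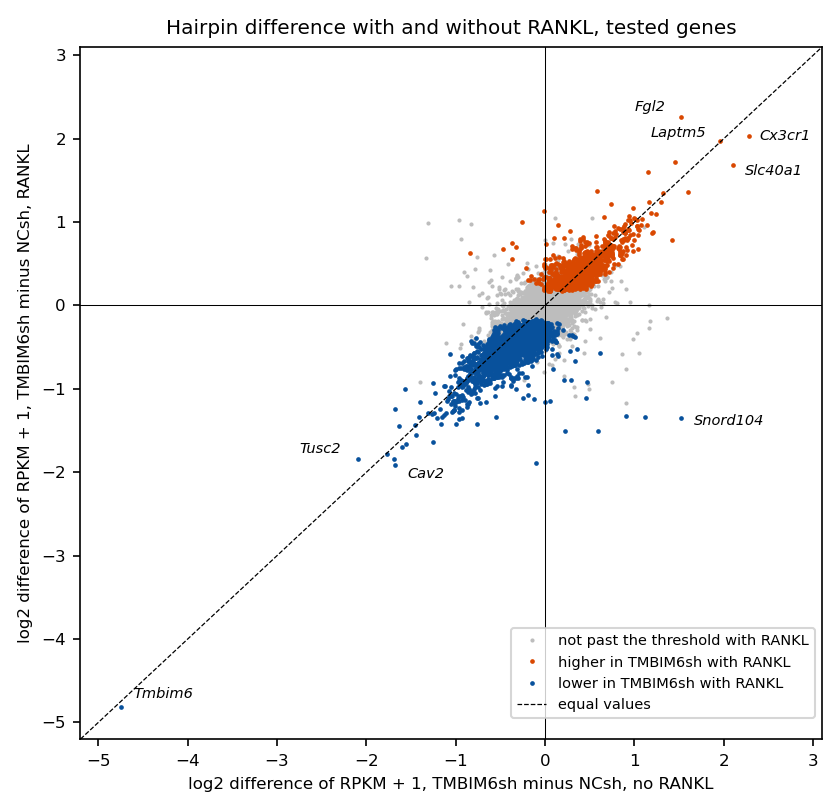
Log2 difference between TMBIM6sh and NCsh libraries without RANKL (horizontal) and with RANKL (vertical), 1 point for each of the 11040 genes tested, coloured by the call with RANKL; the dashed line marks equal values. Pearson's r over all points is 0.775, with Tmbim6 at the lower left and Snord104 off the line at the right.

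Genes that carry out bone resorption went both ways. Of 18 osteoclast effectors 11 passed the filter. Of these 2 were higher and 4 lower (median 0.00), or 3 and 3 after median-ratio scaling. All tested genes had a median of -0.07, with 8.93% higher and 19.7% lower. Mmp9, a gelatinase that osteoclasts secrete, was at 29.7 and 30.6 RPKM in NCsh and 69.4 and 73.4 RPKM in TMBIM6sh libraries (log2 1.22, SE 0.0596, limma adjusted p = 3.45e-06). Without RANKL it was at 12.7 and 12.7 RPKM in NCsh and 22.2 and 21.6 RPKM in TMBIM6sh libraries. The 4 groups of Mmp9 values did not overlap, with the hairpin higher in each state, and the log2 difference was 0.74 without RANKL. Its difference between the states was 0.48 and did not pass (limma adjusted p = 0.51). Mmp14, a membrane-bound matrix protease, was higher by 0.29 on the log2 scale, a call that ended without any 1 of the 4 libraries with RANKL (limma adjusted p up to 0.127).

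Atp6v0d2, a proton pump subunit needed for fusion of osteoclast precursors, was lower, at 12.2 and 12.1 RPKM in NCsh and 6.94 and 6.47 RPKM in TMBIM6sh libraries (log2 -0.77, SE 0.0702, limma adjusted p = 7.04e-05). The integrin chain Itgav, which forms the bone-binding receptor of osteoclasts with Itgb3 (log2 -0.51), and Ostm1, the partner of the chloride transporter Clcn7 (-0.34), were lower too. Cd9, a tetraspanin that takes part in fusion, had a log2 value of -0.26. It lost its call after median-ratio scaling (limma adjusted p = 0.0568) and after the GC adjustment (limma adjusted p = 0.0976). The call held in 9 of the 18 alternatives listed at the end. Acp5, tartrate-resistant acid phosphatase, was at 56.0 and 64.1 RPKM in NCsh and 55.8 and 64.4 RPKM in TMBIM6sh libraries, so the groups overlapped fully. Dcstamp, the main fusion protein, lay between 0.558 and 1.25 RPKM in the 4 libraries, and Src, Tcirg1 and Clcn7 did not pass. Ctsk, Calcr, Itgb3, Car2, Oscar, Ocstamp and Siglec15 stayed below 1 RPKM in each of the 8 libraries and were not tested.

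**Figure D3:**
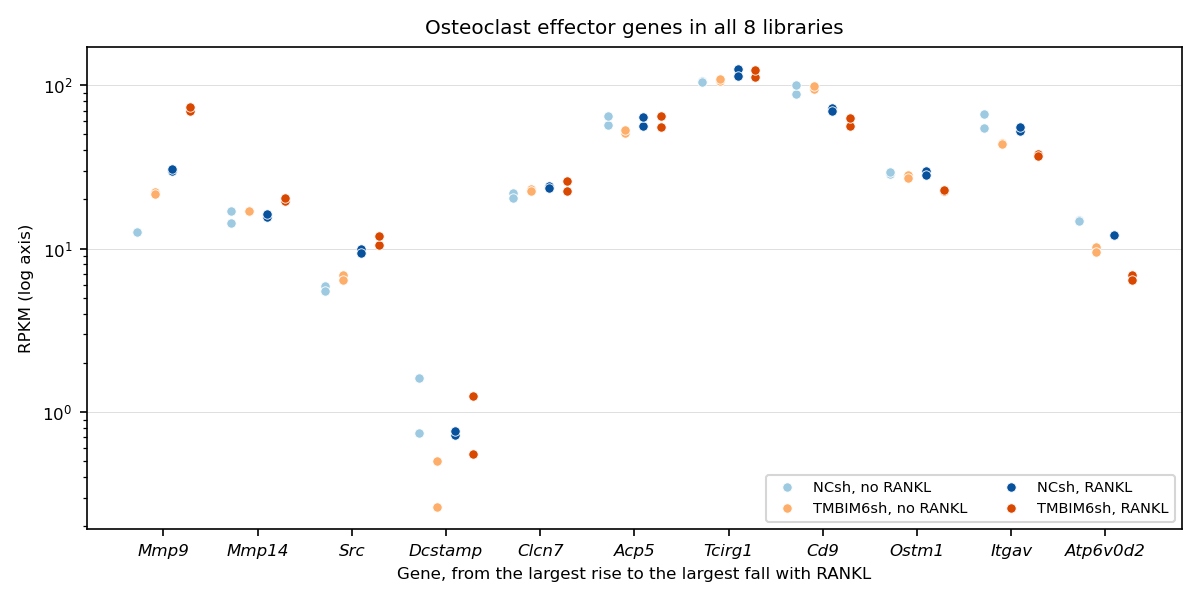
RPKM on a log axis for the 11 osteoclast effector genes that passed the filter, in all 8 libraries (2 per group, 1 point each), ordered from the largest rise to the largest fall with RANKL. Mmp9 is highest in the TMBIM6sh libraries with RANKL (69.4 and 73.4 RPKM), Atp6v0d2 is lowest there (6.94 and 6.47 RPKM), and the Acp5 values of the groups with RANKL overlap.

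Among transcription factors of osteoclast formation 6 of 20 were higher and 2 lower (median 0.07), or 6 and 1 after median-ratio scaling. The shares over all tested genes were 8.93% higher and 19.7% lower. Nfatc1 itself was at 6.24 to 6.92 RPKM in NCsh and 5.77 to 5.85 RPKM in TMBIM6sh libraries and did not pass (limma adjusted p = 0.239). Fosl1, an AP-1 subunit, was at 2.68 and 2.90 RPKM against 5.26 and 5.67 RPKM (log2 0.77, limma adjusted p = 0.00044). Prdm1, the repressor Blimp1 that silences inhibitors of osteoclast formation, was higher by 0.66. The AP-1 genes Jun (0.28) and Jdp2 (0.39) were higher by less and Tfeb, a regulator of lysosomal genes, was lower (-0.36). Without NCsh library 1 or 2 the number of higher factors was 3 or 2, and without TMBIM6sh library 2 it was 2, while 1 factor was lower without NCsh library 1 or either TMBIM6sh library. Jun and Jdp2 were among those lost (limma adjusted p up to 0.118 and 0.137).

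Repressors of osteoclast differentiation gave 2 higher and 3 lower of 13 tested, near the shares over all tested genes (8.93% and 19.7%), and 3 higher and 0 lower after median-ratio scaling. The lower calls of Irf7, Id3 and Id2 (log2 -0.26, -0.23 and -0.21) were lost with that scaling, at -0.20, -0.16 and -0.14. Without NCsh library 2 there was 1 lower repressor, and without any 1 of the other 3 libraries with RANKL, or a TMBIM6sh library that had none, there were 0. The higher count was 1 without NCsh library 1 or TMBIM6sh library 2. Traf3, which restrains noncanonical NF-kappaB signalling, was at 11.2 and 11.1 RPKM in NCsh and 15.6 and 15.5 RPKM in TMBIM6sh libraries (log2 0.45, limma adjusted p = 0.00126). In the signalling chain of RANK and the M-CSF receptor 4 of 25 members were higher and 5 lower (median 0.00), or 7 and 4 after median-ratio scaling. Blnk, the adaptor that links immunoreceptors to phospholipase C gamma and calcium, was the member with the largest fall, from 37.7 and 38.9 to 16.2 and 16.9 RPKM (log2 -1.16, SE 0.0684, limma adjusted p = 9.43e-06). Ppp3ca, the catalytic subunit of calcineurin that activates NFATc1, was higher, at 14.1 and 14.0 against 22.9 and 24.3 RPKM (0.71). The kinase Tec was lower (-0.47) and the TAK1 adaptor Tab2 higher (0.34). The M-CSF receptor Csf1r was lower by 0.28, a call lost without NCsh library 2 (limma adjusted p = 0.0668). Without NCsh library 2, 2 signalling genes were higher and 2 lower, and without TMBIM6sh library 2 the counts were 2 and 3. Without NCsh library 1 they were 2 and 4.

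Chaperones, sensors and degradation factors of the ER were lower as far as they were called. Proteins that enter the ER are folded with the help of HSPA5 (BiP), HSP90B1, calreticulin and disulfide isomerases; when unfolded protein builds up, the sensors IRE1 (Ern1), ATF6 and PERK (Eif2ak3) raise these genes, and ER-associated degradation removes what cannot be folded. Of 25 members, all tested, 12 were lower and 0 higher in TMBIM6sh libraries (median -0.23), beside 19.7% lower and 8.93% higher, with a median of -0.07, over all tested genes. After median-ratio scaling 11 were lower and 0 higher, and the count ran from 10 to 16 lower when 1 library was left out. Pdia6, a disulfide isomerase, was at 50.6 and 48.4 RPKM in NCsh and 17.0 and 18.4 RPKM in TMBIM6sh libraries (log2 -1.43, SE 0.0809, limma adjusted p = 7.46e-06). Hspa5 was at 127.9 and 131.8 RPKM against 79.6 and 90.4 RPKM (-0.61), and Hsp90b1 at 97.6 and 95.3 RPKM against 46.5 and 59.3 RPKM (-0.87). For each of these chaperones both TMBIM6sh libraries lay below both NCsh libraries, which follows largely from choosing them by p. Calr (-0.54), the sensor Atf6 (-0.80), the IRE1 target Xbp1 (-0.63), Herpud1 (-0.58) and Ern1 (-0.40) were lower as well. Dnajb9, Dnajc3, Derl2, Syvn1 and Creld2 had log2 values between -0.03 and 0.02 and did not pass. Without RANKL 12 members were also lower and 0 higher (median -0.21).

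Because these genes are known to share a promoter element, their RefSeq promoters (GRCm38.p6, 250 bases before to 50 after each start) were searched on both strands for the ER stress response element, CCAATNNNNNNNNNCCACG, the site of ATF6 and NF-Y. It was found in 37 of 27025 genes with a promoter in the table (0.137%) and in 12 of the 8576 tested genes that matched (0.14%). Of the 21 list members with a promoter 8 carried it. Their stretches are printed 5′ to 3′ on the gene's strand with 25 bases on each side, and capitals mark the match, or its reverse complement where it lies on the other strand. The carriers that were lower in TMBIM6sh libraries come before the 4 that did not pass.
Hspa5 (chr2:34772000-34772068, plus): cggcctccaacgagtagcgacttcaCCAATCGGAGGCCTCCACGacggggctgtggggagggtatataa
Hsp90b1 (chr10:86705613-86705681, minus): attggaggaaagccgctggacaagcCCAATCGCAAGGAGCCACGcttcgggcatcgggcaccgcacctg
Calr (chr8:84847050-84847118, minus): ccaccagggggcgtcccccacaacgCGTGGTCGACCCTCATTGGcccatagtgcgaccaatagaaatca
Pdia6 (chr12:17266466-17266534, plus): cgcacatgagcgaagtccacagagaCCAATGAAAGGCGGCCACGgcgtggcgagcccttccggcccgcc
Canx (chr11:50325775-50325843, minus): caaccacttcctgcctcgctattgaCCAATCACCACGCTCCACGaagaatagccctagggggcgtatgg
Dnajc3 (chr14:118937802-118937870, plus): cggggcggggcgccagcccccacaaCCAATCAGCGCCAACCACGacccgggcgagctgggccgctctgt
Creld2 (chr15:88819495-88819563, plus): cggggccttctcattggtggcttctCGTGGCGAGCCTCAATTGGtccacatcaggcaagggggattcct
Syvn1 (chr19:6046507-6046575, plus): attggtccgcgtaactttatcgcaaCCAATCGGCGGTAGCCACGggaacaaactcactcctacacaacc

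The carriers were split: 4 of 8 were lower, with a median of -0.35, and 6 of the 13 matched members without the element were lower, with a median of -0.23. Canx was at 142.4 and 149.6 RPKM in NCsh and 127.3 and 133.2 RPKM in TMBIM6sh libraries (limma adjusted p = 0.0611). Dnajc3, a co-chaperone of HSPA5, was at 14.4 and 15.1 RPKM against 14.7 and 15.3 RPKM. A match describes the letters of the promoter and is not by itself a site or a cause.

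In the integrated stress response phosphorylation of eIF2 favours translation of ATF4. Of its 23 tested members 8 were lower and 2 higher (median -0.14), or 8 and 3 after median-ratio scaling. Beside these stand 19.7% lower and 8.93% higher over all tested genes. Ddit3, the death-promoting factor CHOP, was at 44.3 and 43.5 RPKM in NCsh and 24.3 and 26.7 RPKM in TMBIM6sh libraries (log2 -0.76, limma adjusted p = 0.000497). Atf4 was lower by 0.36, the pseudokinase Trib3 by 0.54, asparagine synthetase Asns by 0.48 and the cystine transporter subunit Slc7a11 by 0.50, each on the log2 scale. Psat1, an enzyme of serine synthesis, went the other way, from 9.90 and 10.8 to 19.6 and 20.9 RPKM (0.91).

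Among relatives of the target, Grina (TMBIM3) was higher, at 87.5 and 89.7 RPKM in NCsh and 147.7 and 161.1 RPKM in TMBIM6sh libraries (log2 0.79, limma adjusted p = 3.49e-05). The other family members tested, Tmbim1, Tmbim4 and Ghitm, had log2 values of -0.28, -0.33 and -0.28; of these 3 lower calls 1 was left without NCsh library 2 and 0 without TMBIM6sh library 1. Genes of ER calcium handling gave 2 higher and 5 lower of 18, or 2 and 3 after median-ratio scaling. Across all tested genes 8.93% were higher and 19.7% lower. Stim2, the sensor of ER calcium, was higher (0.55), while the IP3 receptor Itpr3 was lower (-0.37). Leaving out any 1 of the 4 libraries with RANKL gave 1 higher and 2 lower calcium genes, and without a TMBIM6sh library that had no RANKL there were 1 and 3. Of 16 tested BCL-2 family genes, which set the threshold of mitochondrial cell death, 3 were higher and 4 lower. The protective Bcl2a1b (0.53) and Bcl2a1d (0.77) were higher, near-identical copies whose reads may be split, and the protective Bcl2l1 (-0.42) and the pore-forming Bak1 (-0.32) were lower. Without NCsh library 2, Bak1 lost its call (limma adjusted p = 0.0525), and 1 BCL-2 gene was lower in place of 4, and 2 were lower without NCsh library 1 or TMBIM6sh library 1.

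Genes of mitosis were lower almost throughout, beside 19.7% lower and 8.93% higher over all tested genes. Of 30 members, all tested, 29 were lower and 0 higher (median -0.74), 28 were lower after median-ratio scaling and 27 to 29 when 1 library was left out. Cenpa, the histone of centromeres, was at 10.1 and 10.7 RPKM in NCsh and 3.07 and 4.62 RPKM in TMBIM6sh libraries (log2 -1.26). Ccnb2, a mitotic cyclin, was at 12.7 and 12.0 RPKM against 5.998 and 5.988 RPKM (-0.93, limma adjusted p = 7.9e-05). Mki67, the Ki-67 antigen of cycling cells, was at 33.1 and 34.1 RPKM against 20.4 and 19.2 RPKM (-0.73). In each case the hairpin groups were separate, though these genes were named by p or after their values were seen. The exception without a call was Ttk, at 3.20 and 3.62 against 2.13 and 2.72 RPKM. Without RANKL 29 members were lower too, with a median of -0.75. DNA replication genes, which act earlier in the cycle, were lower to a smaller extent: 17 of 30 were lower and 0 higher (median -0.27), and 12 after median-ratio scaling. Thymidine kinase Tk1 was at 31.6 and 31.2 RPKM against 18.7 and 19.7 RPKM (-0.68), while the clamp Pcna, at 197 to 213 RPKM, did not pass. Without NCsh library 1 or 2 the replication count was 10, and without TMBIM6sh library 1 or 2 it was 9 or 11, while 1 replication gene was higher without a library of the NCsh group that had no RANKL.

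Mitotic genes are known to share the cell cycle homology region, TTTGAA or TTCGAA, bound by the DREAM and MuvB complexes. These letters, on either strand, occur in 16.5% of the tested genes with a promoter in the table and in 20 of the 26 mitosis genes that matched (76.9%). Of the 20 carriers 19 were lower and of the 6 others 6 were lower, so nearly all were lower with or without these letters. The stretches with a match before the start are shown for Ccnb2, the cyclin above, and Bub1b, a spindle checkpoint kinase (log2 -1.02). Capitals mark the match, 167 bases before the start in Ccnb2 and 188 in Bub1b. Whether these letters are bound there was not tested.
Ccnb2 (chr9:70421691-70421746, minus): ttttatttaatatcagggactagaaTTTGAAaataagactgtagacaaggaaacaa
Bub1b (chr2:118597998-118598053, plus): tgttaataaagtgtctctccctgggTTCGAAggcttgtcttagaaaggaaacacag

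**Figure D4:**
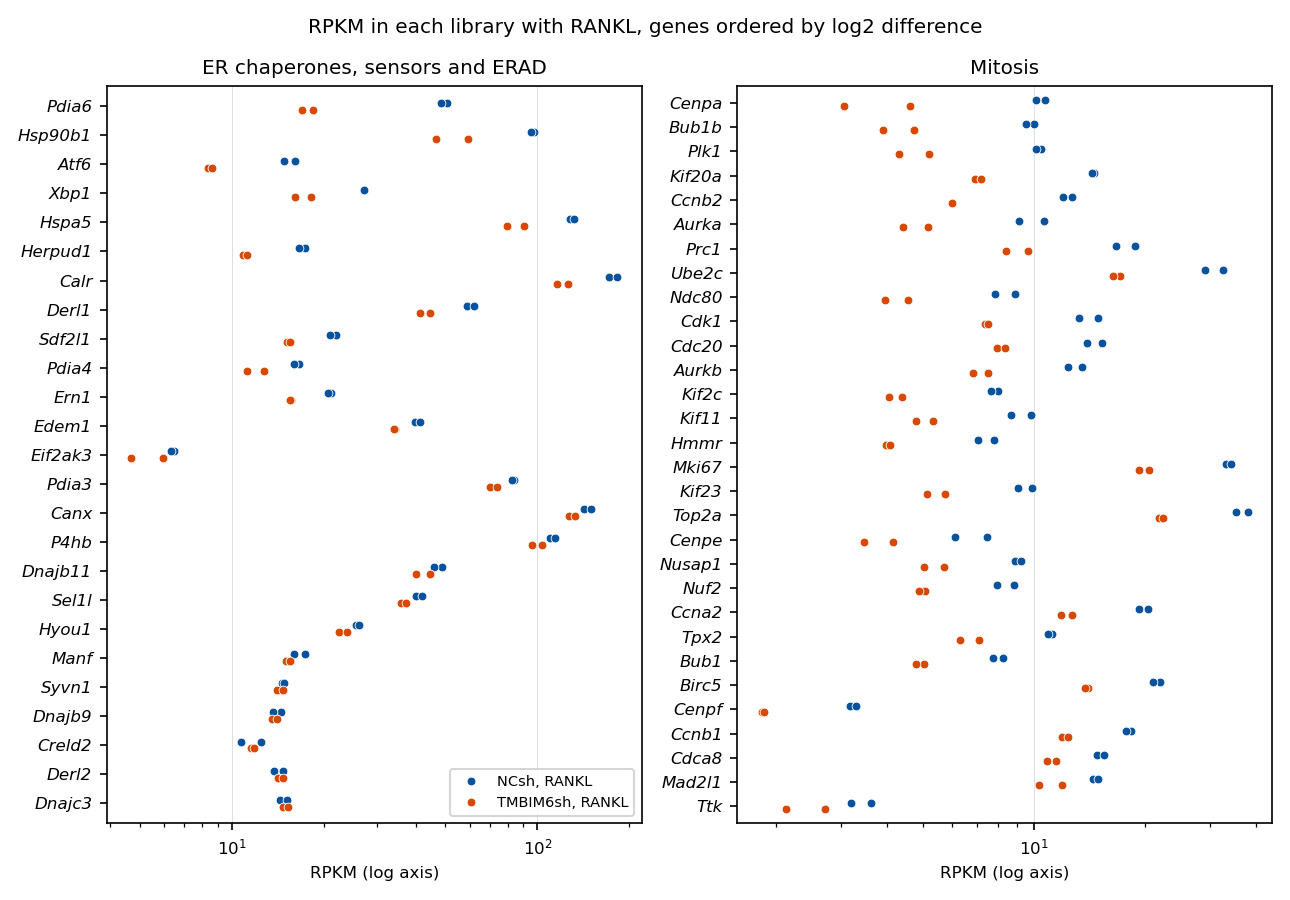
RPKM on a log axis in the 2 NCsh and 2 TMBIM6sh libraries with RANKL for the 25 ER genes (left) and the 30 mitosis genes (right), ordered by log2 difference. In the ER panel the difference runs from Pdia6 (log2 -1.43) to Dnajc3 (0.02), while in the mitosis panel 29 of 30 genes were called lower.

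Most tested clock genes were lower. In the circadian oscillator CLOCK and BMAL1 (Arntl) switch on their own repressors, the Per, Cry and Nr1d genes, and outputs such as Dbp. Of 16 tested members 11 were lower and 2 higher (median -0.64), the same counts as after median-ratio scaling. By comparison, 19.7% of all tested genes were lower and 8.93% higher. Dbp was at 10.4 and 12.3 RPKM in NCsh and 3.35 and 3.75 RPKM in TMBIM6sh libraries (log2 -1.44, limma adjusted p = 6.54e-05). Ciart (-1.35) and Per2 (-1.22), repressors of the loop, and the output factor Tef (-0.65) were lower, as was the repressor Bhlhe40 (-0.92). Arntl, from 1.74 and 1.93 to 3.66 and 3.77 RPKM (0.74), and Nfil3, an antagonist of Dbp (0.51), were the higher ones. Of these 2, 1 kept the call without NCsh library 2 or without either TMBIM6sh library. The time of day of harvest is not given in the labels, and its part was not tested.

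Of 15 iron genes 3 were higher (Slc40a1, Hmox1 and Fth1) and 6 lower, or 5 and 5 after median-ratio scaling. Taking all tested genes, 8.93% were higher and 19.7% lower. Hmox1, which frees iron from heme, was at 749.9 and 734.5 RPKM in NCsh and 1338 and 1466 RPKM in TMBIM6sh libraries (log2 0.92, limma adjusted p = 9.67e-05). Bach1, the repressor of Hmox1, Slc40a1 and the ferritin genes, was at 25.6 and 23.7 RPKM against 11.7 and 10.5 RPKM (-1.09). Ncoa4, the receptor that delivers ferritin to autophagy, was at 46.7 and 47.3 RPKM against 21.2 and 22.9 RPKM (-1.06), and Ireb2, a regulator of iron-responsive messages, was lower by 0.53. Ftl1, the light chain of ferritin, was at 17760 and 17900 RPKM against 20030 and 21910 RPKM and did not pass (limma adjusted p = 0.296). In the metallothionein and zinc list 4 of 13 were lower and 1 higher. Mt1 was at 186.4 and 185.9 RPKM against 80.7 and 85.6 RPKM (-1.15), and Mt2 at 126.6 and 125.8 RPKM against 32.6 and 39.8 RPKM (-1.78). The zinc importers Slc39a10 (-0.66) and Slc39a1 (-0.46) were lower, and the exporter family member Slc30a6 had the only higher call, which ended without any 1 of the 4 libraries with RANKL (limma adjusted p up to 0.235). The metal response element (TGCGCNC or TGCACNC, either strand) lies in 40.5% of tested promoters and in 5 of the 12 zinc genes that matched (41.7%).

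NRF2 targets and antioxidant enzymes were split, with 5 higher and 10 lower of 28 (median -0.08), or 7 and 10 after median-ratio scaling. The shares of all tested genes were 8.93% higher and 19.7% lower. Beside Hmox1 and Fth1, the glutathione genes Gclm (log2 0.32) and Gsr (0.34) were higher. The factor itself, Nfe2l2, was at 71.8 and 72.8 RPKM in NCsh and 53.3 and 55.9 RPKM in TMBIM6sh libraries (-0.40), its inhibitor Keap1 was lower by 0.47 and the growth inhibitor Osgin1 by 0.59. Catalase (Cat) was lower by 0.42. Of the 7 phagocyte NADPH oxidase genes 1, Rac1, was lower (-0.24), and after median-ratio scaling 1 was higher and 0 lower; Rac1 lost its call without either NCsh library, TMBIM6sh library 1 or a TMBIM6sh library that had no RANKL (limma adjusted p up to 0.152), and 2 oxidase genes were lower without an NCsh library that had none.

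Among secreted and surface proteins of the macrophage calls went both ways, beside 8.93% higher and 19.7% lower over all tested genes. Of 25 tested chemokines and cytokines 3 were higher and 6 lower (median -0.17; 4 and 6 after median-ratio scaling). Ccl5 was at 23.7 and 19.5 RPKM in NCsh and 50.6 and 63.8 RPKM in TMBIM6sh libraries, and Tnf at 35.6 and 33.6 RPKM against 43.3 and 42.2 RPKM (log2 0.30). Spp1, the bone matrix protein osteopontin, was at 279.1 and 257.4 RPKM against 138.3 and 147.3 RPKM (-0.90). The growth factor Vegfa (-0.76) and the interleukin receptor antagonist Il1rn (-0.43) were lower. Of 7 chemokine receptors Cx3cr1 was higher and Cxcr4 lower (-0.57); 2 were higher without TMBIM6sh library 2, and 2 lower without NCsh library 1 or a TMBIM6sh library that had no RANKL. Among 11 C-type lectin receptors 3 were higher and 4 lower: beside Clec4n the mannose receptor Mrc1 (-0.91), Clec4a3 (-0.73) and Dectin-1, Clec7a (-0.56), were lower, and the inhibitory Clec12a was higher (0.50). Without NCsh library 2 the higher count was 1. In the plasminogen and matrix list 4 of 17 were higher and 6 lower. Plau, the urokinase that activates plasmin, was at 33.7 and 32.6 RPKM against 58.8 and 65.1 RPKM (0.88), and Tgfbi, a matrix adaptor protein, at 74.5 and 78.8 RPKM against 30.3 and 33.5 RPKM (-1.24). The elastase Mmp12 (-0.97) and the inhibitor Timp2 (-0.46) were lower. Without NCsh library 2 or either TMBIM6sh library 2 matrix genes were higher. In the list of caveolins and tetraspan proteins 2 of 12 were higher (Cd151, 0.69, and Emp3, 0.44) and 4 lower, with Cav2 and Emp1 the 2 lower calls left without either NCsh library or without TMBIM6sh library 1.

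Interferon-stimulated genes were lower in 15 of 33 tested members and higher in 1 (median -0.23), and in 9 and 2 after median-ratio scaling. For all tested genes the shares were 19.7% lower and 8.93% higher, with a median of -0.07. Trim30a, an interferon-induced regulator of innate signalling, was at 25.9 and 27.5 RPKM in NCsh and 15.2 and 13.3 RPKM in TMBIM6sh libraries (log2 -0.86, limma adjusted p = 8.4e-05). The RNA sensor Ddx58 was lower by 0.46 and the antiviral enzyme Rsad2, at 14.3 and 13.3 against 9.35 and 5.95 RPKM, by 0.81. The sensor Ifih1 was the higher one (0.40). The count of lower genes was 4 without NCsh library 1, 6 without TMBIM6sh library 1 and 7 without TMBIM6sh library 2, and that of higher genes 0 without TMBIM6sh library 1 and 2 without an NCsh library that had no RANKL. Of 7 tested genes of MHC class II presentation 1, H2-DMa, was lower (-0.58) and 0 higher, with 2 lower without TMBIM6sh library 1. Of 17 tested p53 targets 2 were higher and 3 lower, near the shares over all tested genes (8.93% and 19.7%). Trp53inp1 was at 20.8 and 20.4 RPKM against 8.00 and 8.48 RPKM (-1.22). The cyclin Ccng1 was higher (0.45), while Cdkn1a and Mdm2 did not pass. Of the 3 lower p53 targets 1 was left without any 1 of the 4 libraries with RANKL.

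Of 31 lysosomal hydrolases and membrane proteins 16 were lower and 5 higher (median -0.25; 15 and 7 after median-ratio scaling), beside 19.7% lower and 8.93% higher among all tested genes. The protease legumain, Lgmn, was at 303.4 and 313.1 RPKM in NCsh and 177.0 and 183.3 RPKM in TMBIM6sh libraries (log2 -0.77, limma adjusted p = 5.23e-05), and the acid lipase Lipa was lower by 0.42. Laptm5 and the cholesterol exporter Npc1 (0.50) were among the higher ones. The lower count was 10 without NCsh library 2 or TMBIM6sh library 1, and the higher count 2 or 3 without NCsh library 1 or 2 and 2 without TMBIM6sh library 2. Of 18 subunits of the V-ATPase, the proton pump that acidifies lysosomes, 7 were lower and 0 higher (median -0.12), and 6 lower and 2 higher after median-ratio scaling, with 1 higher without an NCsh library that had no RANKL. Atp6v1a, the catalytic subunit, was at 126.9 and 134.2 RPKM against 66.6 and 70.2 RPKM (-0.92), and Atp6v1g1, of the stalk, at 213.5 and 222.7 RPKM against 116.9 and 121.1 RPKM (-0.87). Both hairpin groups were separate in these subunits, which were chosen by p, so that separation follows largely from the choice. Of 25 genes of the autophagy machinery 2 were higher and 7 lower (median 0.03), or 6 and 6 after median-ratio scaling, and 4 were lower without NCsh library 1.

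Of 23 tested genes of cholesterol synthesis 8 were higher and 3 lower (median 0.06), or 9 and 2 after median-ratio scaling. Among all tested genes 8.93% were higher and 19.7% lower. Hmgcs1, a synthase early in that pathway, was at 9.42 and 9.64 RPKM in NCsh and 12.1 and 13.4 RPKM in TMBIM6sh libraries (log2 0.38, limma adjusted p = 0.00395). The higher count was 2 or 5 without NCsh library 1 or 2, and 5 or 3 without TMBIM6sh library 1 or 2, and the lower count was 1 without NCsh library 1. Of 15 tested LXR targets 2 were higher and 4 lower; the lipoprotein gene Apoe was lower (-0.51), as was the sterol exporter Abcg1 (-0.55), and Ch25h, which makes an oxysterol, was higher (0.78). Glycolysis had 2 of 21 higher and 3 lower, or 4 and 1 after median-ratio scaling, with Pgam1 lower (-0.48) and Gpi1 higher (0.32). Oxidative phosphorylation had 2 of 30 higher and 6 lower, or 7 and 3 after median-ratio scaling, shares near those of all tested genes (8.93% and 19.7%) before scaling, with the ATP synthase subunit Atp5b at 159.1 and 168.9 RPKM against 263.5 and 285.3 RPKM (0.74). Leaving out any 1 of the 4 libraries with RANKL gave 1 lower gene of glycolysis and 1 higher gene of oxidative phosphorylation, and 2 or 3 lower genes of the latter except without TMBIM6sh library 2. Without a TMBIM6sh library that had no RANKL the former had 1 lower, the latter 1 higher and 3 lower, and without an NCsh library that had none 4 genes of glycolysis were higher. Ribosomal proteins had 1 of 30 lower, Rpl5 (-0.63), and 0 higher (median 0.10), with 4 higher after median-ratio scaling and also 4 without a library of the NCsh group that had no RANKL.

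**Figure D5:**
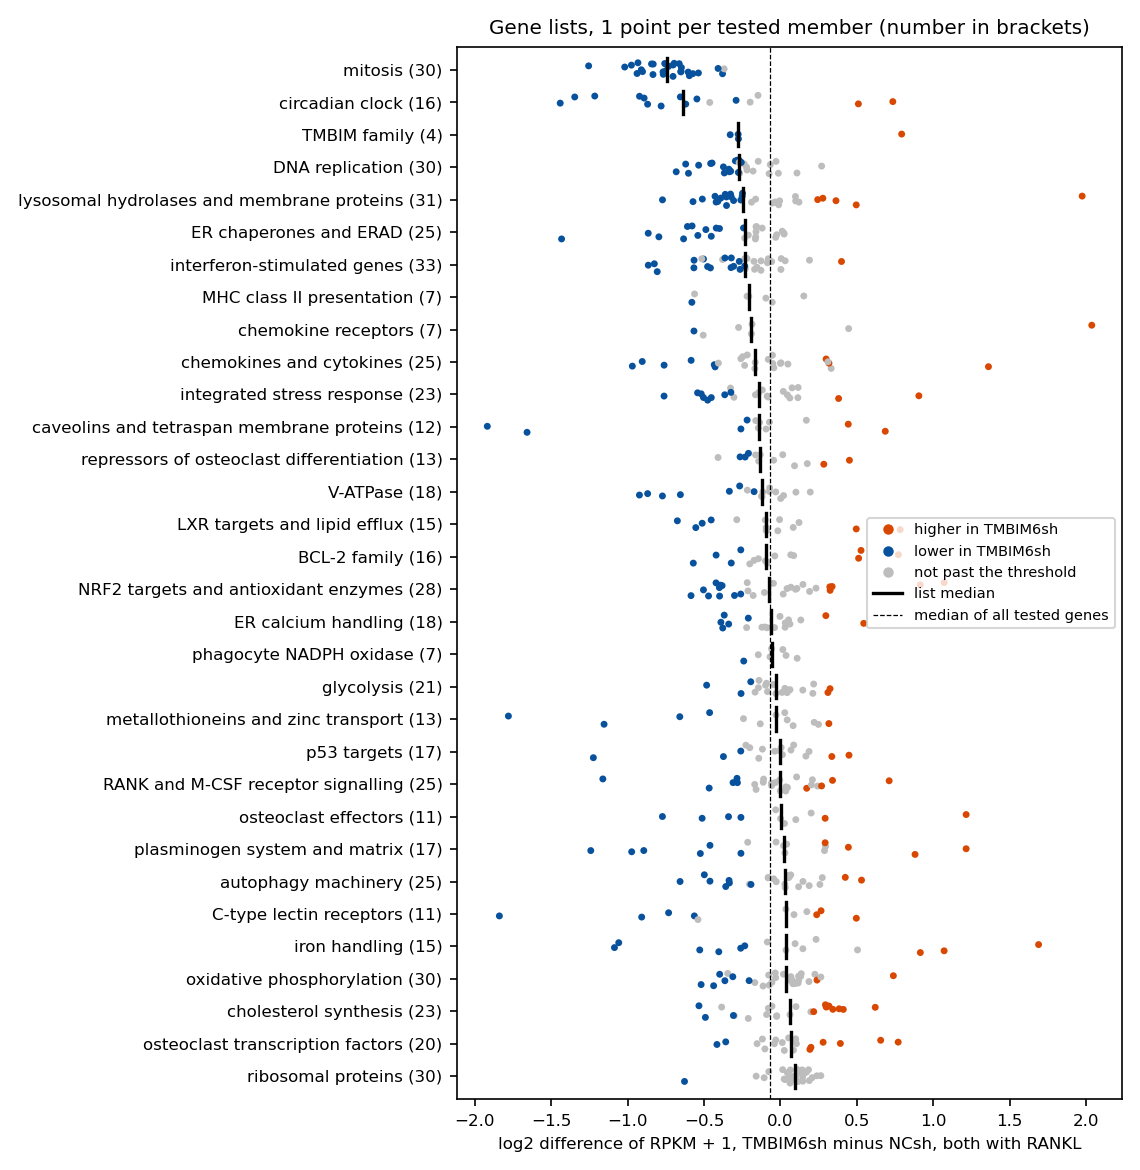
Log2 difference between TMBIM6sh and NCsh libraries with RANKL for the tested members of 32 gene lists, 1 point per gene, coloured by call; bars mark list medians and the dashed line the median of all tested genes (-0.07). Mitosis (-0.74) and the circadian clock (-0.64) have the lowest medians, and ribosomal proteins (0.10) the highest.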

How the data were processed

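The deposited RPKM values were made by the authors with HOMER's analyzeRepeats on mm10 RefSeq gene models, per the file headers: tags in exons on both strands were counted, isoforms condensed to 1 entry per gene, and counts divided by exon length and library tags. Overlapping and antisense genes therefore cannot be told apart. Column heads read FPKM where the command asks for RPKM. The submitters' processing notes also name HISAT2, with no role or version. Values were whole multiples of 1 tag (100% of 1884 to 2203 values per library, within 0.1 tags), which gave the depth; a count of 0 allows up to 3 tags.

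Here log2(RPKM + 1) was fitted without further scaling in limma 3.58.1 (R 4.3.3): 1 mean per group over 8 libraries, an intensity trend, 4 residual and 5.54 prior degrees of freedom. The 11040 of 24940 genes with at least 1 RPKM in at least 2 libraries were tested, p-values adjusted by Benjamini-Hochberg and called under 0.05. The log scale understates differences of low genes. Duplicates correlated at 0.993 to 0.995, and their median absolute log2 difference was 0.0742 to 0.115. The fit was tested on simulated data. Comparisons, gene lists (32, plus 6 marker lists) and the naming rule were chosen with earlier results of these data known. The rule takes Tmbim6, the osteoclast effectors, the 15 largest rises and falls among called genes whose groups did not overlap and whose higher group averaged 5 RPKM or more and up to 5 genes per list by p; genes named to complete a group, and Nfatc1, Ttk, Ftl1, Arntl and the promoter carriers, were added after their values were seen. Promoters came from RefSeq (GRCm38.p6). Alternatives are given at the end. Some genes of these lists are not reported here by name.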

Additional observations from a re-analysis of the deposited data

Results flagged for a closer look

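Snord104, a small nucleolar RNA gene on chromosome 11 at 106500991 to 106501063, was the only gene whose hairpin difference with RANKL differed from that without RANKL by limma's test of the interaction (log2 -2.88, SE 0.259, adjusted p = 0.00998). With RANKL it was at 5.45 and 3.40 RPKM in NCsh and 1.08 and 1.09 RPKM in TMBIM6sh libraries. Without RANKL it was at 0.525 and 0.974 RPKM in NCsh and 4.08 and 3.90 RPKM in TMBIM6sh libraries. These values are 10 and 7 tags against 2 and 2, and 1 and 2 tags against 8 and 8, over a gene model of 72 bases. The gene was named after its values were seen, because it is the only one that passed.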

How the results depend on the processing

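The 18 alternatives for the comparison under RANKL were other pseudocounts (0.1 and 0.5), other filters (any value above 0, or 5 RPKM in 2 libraries), median-ratio scaling, a fit of the 4 libraries alone, no intensity trend, tags scaled to library size alone, a replicate block, leaving out each of the 8 libraries, and a GC adjustment chosen after seeing the data. Of 176 named genes tested 156 were called, 126 of these in every alternative run; 30 lost the call in at least 1 and 0 reversed. With 1 library left out, calls under RANKL ran from 1870 to 3558, higher calls from 549 to 1146, lower calls from 1289 to 2412, calls without RANKL from 1396 to 2523, and calls for the difference between the states from 0 to 2. Median-ratio scaling gave 1580 higher calls under RANKL in place of 986. The difference had 8 calls with the filter above 0, 0 with that of 5 RPKM, 2 with no trend and 2 with the GC adjustment, in place of 1. Leaving 1 library in a group assumes that it varies like the others. The difference between duplicates 1 and 2 correlated across genes at -0.0651 to 0.0625 between groups. This shows no pairing by duplicate number but cannot exclude it, because a shared mouse or batch may leave little trace beside library noise. The replicate block gave 3128 calls under RANKL, 965 higher and 2163 lower, 2654 without RANKL and 1 for the difference. Of the named calls it ended 1, that of Id2. Depth limits short genes: the only call for the difference, Snord104, rests on 1 to 10 tags.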
